A study of Homo sapiens with 60 samples.

Results

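The 9 genes described here encode the enzymes that make serine from glucose and that pass its 1-carbon unit through folate in the cytosol and the mitochondrion. They were PHGDH, PSAT1, PSPH, SHMT1, SHMT2, MTHFD1, MTHFD1L, MTHFD2 and ALDH1L2. They were picked by name, by matching the Ensembl identifiers of a gene table of 60675 rows to their symbols, and all 9 were among the 16093 genes that passed the filter on low counts. The table comes from RNA sequencing of HepG2, an established line of human liver cancer cells, harvested 24 h after dosing. There were 20 groups of 3 libraries. The treated groups were wortmannin, a phosphoinositide 3-kinase inhibitor, at 10 µM, and water extracts of 6 tonifying herbs, each at 20, 100 and 500 µg/mL. The herbs were Poria Cocos (Poria), Atractylodis Rhizoma (Atractylodes), Glycyrrhizae Radix (licorice), Panax Ginseng (ginseng), Angelicae Gigantis Radix (angelica) and Paeoniae Radix (peony). The control group received the vehicle DMSO, which the sample labels give as 0.1% and the series description as 2%. The labels do not say whether replicates were separate cultures, so each p-value rests on differences among these libraries alone, and that spread may be technical.

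Serine is made from a glycolytic intermediate in 3 steps, by PHGDH, which oxidises 3-phosphoglycerate, PSAT1, the aminotransferase, and PSPH, the phosphatase. Serine hydroxymethyltransferase then moves a carbon from serine to tetrahydrofolate, giving glycine, through SHMT2 in the mitochondrion and SHMT1 in the cytosol. In the mitochondrion MTHFD2 oxidises the folate-bound carbon, MTHFD1L releases it as formate and ALDH1L2 burns it to carbon dioxide with formation of NADPH. In the cytosol the trifunctional enzyme MTHFD1 takes the formate up again for purine, thymidylate and methionine synthesis. Several of these genes are known targets of ATF4, the transcription factor of the amino acid and integrated stress response, and MYC and NRF2 (NFE2L2) have also been tied to them.

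RefSeq promoter windows (GRCh38.p14, 250 bases before to 50 after the transcript start) were at hand for 6 of the 9 genes, PHGDH, PSAT1, SHMT1, MTHFD1, MTHFD1L and MTHFD2. They were searched on both strands for TGATGNAA, the element bound by ATF4 with a C/EBP partner, for TGACNNNGC, the core of the antioxidant response element bound by NRF2, and for the E-box CACGTG, bound by MYC among others. Of 35116 promoter windows of the same length, 3.62% held the first, 13.3% the second and 7.26% the third. Matches were found in 3 of the 6 genes, and their windows are printed to show where the matches lie in 3 genes whose values are given below. Capitals mark the match, and each window is printed on the plus strand, that of the gene.
MTHFD1L, chr6:150866236-150866535: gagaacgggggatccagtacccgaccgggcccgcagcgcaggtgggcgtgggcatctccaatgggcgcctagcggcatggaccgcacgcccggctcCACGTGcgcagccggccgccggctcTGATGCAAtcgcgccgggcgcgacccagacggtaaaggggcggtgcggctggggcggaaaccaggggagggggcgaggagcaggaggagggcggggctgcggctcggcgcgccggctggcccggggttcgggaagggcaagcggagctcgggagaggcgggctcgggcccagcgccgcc
MTHFD2, chr2:74198365-74198664: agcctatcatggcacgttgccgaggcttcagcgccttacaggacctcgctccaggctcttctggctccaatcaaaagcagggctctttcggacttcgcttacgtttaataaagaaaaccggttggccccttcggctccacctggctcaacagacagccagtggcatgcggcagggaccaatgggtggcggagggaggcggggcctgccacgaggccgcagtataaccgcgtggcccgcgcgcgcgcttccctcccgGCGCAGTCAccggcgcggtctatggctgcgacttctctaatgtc
MTHFD1, chr14:64388103-64388402: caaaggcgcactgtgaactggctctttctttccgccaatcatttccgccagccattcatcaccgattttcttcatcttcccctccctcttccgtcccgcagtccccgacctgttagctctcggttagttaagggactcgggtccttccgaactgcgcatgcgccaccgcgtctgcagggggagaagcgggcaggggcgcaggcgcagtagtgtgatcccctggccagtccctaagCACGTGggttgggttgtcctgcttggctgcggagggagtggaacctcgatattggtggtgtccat
The MTHFD1L window held an E-box at bases 97 to 102 and TGATGCAA at bases 122 to 129. The same 2 matches lay in 3 overlapping windows of this gene's 4 annotated starts. MTHFD2 held the reverse complement of an antioxidant element, GCGCAGTCA, at bases 257 to 265, and MTHFD1 an E-box at bases 236 to 241. The windows of PHGDH, PSAT1 and SHMT1 held none of the 3 letter patterns.

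Libraries held 20.9 M to 33.4 M counts (M stands for 1000000; median 26.1 M), which puts 3 counts at 0.0899 to 0.144 CPM (counts in every 1 M of the library). CPM are scaled by TMM factors, except in the filters and for 3 counts, cell markers, pseudogenes and genes overlapping the 9. The lowest count of any of the 9 genes in any library was 77, for ALDH1L2, and the lowest for the other 8 was 817, for MTHFD1L. The 10 HepG2 markers (ALB, APOA1, APOB, TTR, AFP and others) summed to 55650 to 78890 CPM in each library, against 0.0772 to 0.690 CPM for 5 fibroblast markers and 0.0392 to 0.617 CPM for 5 markers of other epithelial lines. The 5 blood cell markers summed to 39.8 to 78.4 CPM, nearly all of it CD68, and PTPRC was at 0 throughout. Library 1 of Poria at 100 µg/mL stood apart, where 15.2% of counts fell on mitochondrial genes (11.2% and 11.9% in libraries 2 and 3), and the dose steps that rest on it are also given without it. All titles name the same batch. The sample numbers in the descriptions begin differently for wortmannin, for vehicle and for 3 pairs of extracts (Poria with Atractylodes, licorice with ginseng, angelica with peony), and what that first figure marks is not stated. Samples that share it are called a set here. Wortmannin and vehicle share a digit there, with a letter before it in vehicle alone. They were taken as different sets, which the labels do not settle. No extract shares a set with vehicle. A difference from vehicle and any difference between sets therefore cannot be told apart, while doses of an extract were compared within 1 set.

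The genes differed widely in level. Per kilobase of exon, vehicle cells held most PSAT1 (132 CPM per kb; chr9:78297143-78330093 on GRCh38), followed by SHMT2 (44.8; chr12:57229327-57234935), MTHFD2 (22.3; chr2:74198562-74217565), PSPH (20.6; chr7:56011051-56051604), MTHFD1 (19.2; chr14:64388031-64463457), PHGDH (15.2; chr1:119648411-119744226), SHMT1 (8.73; chr17:18327860-18363563), MTHFD1L (8.58; chr6:150865549-151101887) and ALDH1L2 (0.497; chr12:105019784-105084577). Lengths are unions of all annotated exons, which lowers the value of genes with many isoforms. Over the 20 groups the highest group mean exceeded the lowest by between 1.34 times, for SHMT1, and 1.86 times, for ALDH1L2. In bulk RNA, fewer cells with a transcript and less of it per cell cannot be told apart. Pseudogenes of these genes averaged at most 0.0466 CPM. Genes on the opposite strand overlap SHMT1 (SMCR8, 59.4 CPM on average), ALDH1L2 (NOPCHAP1, 10.9 CPM) and MTHFD1 (ZBTB25, 5.74 CPM). The kit marks strand, but the strand setting of the counting is not given in the sources used here, so shared reads cannot be told apart for these 3 genes.

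**Figure D1:**
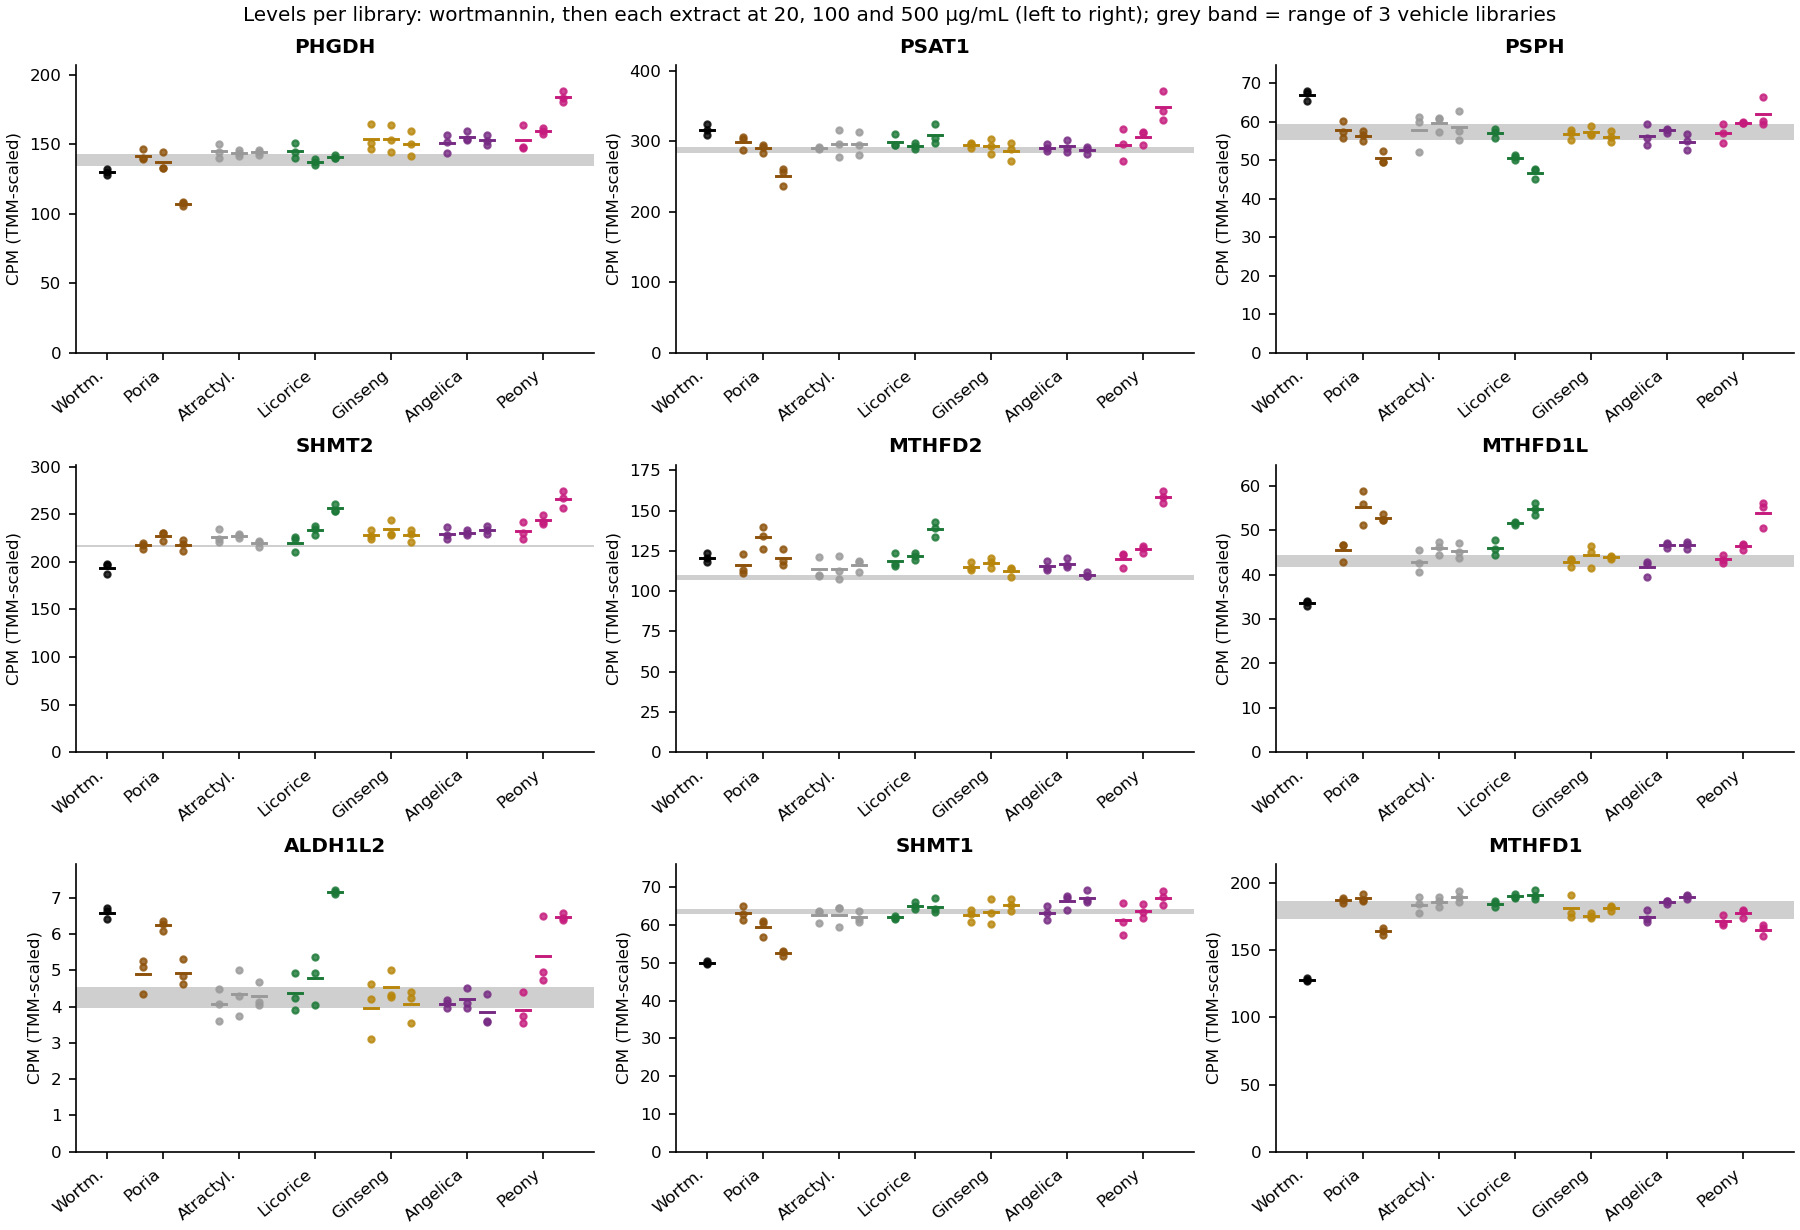
Level of each gene in every library (CPM, linear axis from 0; points are libraries, bars are group means of 3). Columns are wortmannin and then each extract at 20, 100 and 500 µg/mL from left to right, and the grey band spans the 3 vehicle libraries. PHGDH is lowest in the 3 libraries of Poria at 500 µg/mL and highest in those of peony at 500 µg/mL.

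At the ends of each gene's range stood a few groups. All 3 PHGDH values with peony at 500 µg/mL (184, 188 and 181 CPM) lay above every other library of the study, and all 3 with Poria at 500 µg/mL (106, 108 and 109 CPM) lay below every other. PSAT1 was likewise highest with peony at 500 µg/mL, at 343, 370 and 330 CPM, and lowest with Poria at 500 µg/mL, at 236, 260 and 256 CPM. PSPH had another order, with its lowest values under licorice at 500 µg/mL (47.7, 45.1 and 47.5 CPM) and its highest group mean under wortmannin (66.9 CPM), whose range overlapped that of peony at 500 µg/mL. SHMT2 was lowest under wortmannin (197, 198 and 187 CPM), and its 2 highest groups, peony (267, 274 and 256 CPM) and licorice (254, 261 and 254 CPM) at 500 µg/mL, overlapped. MTHFD2 reached 159, 162 and 155 CPM with peony at 500 µg/mL, above all other libraries, and was lowest in vehicle (110, 110 and 107 CPM). MTHFD1L was lowest under wortmannin (33.0, 34.1 and 33.8 CPM). Its highest groups were Poria at 100 µg/mL (58.9, 51.2 and 55.9 CPM), licorice at 500 µg/mL (53.4, 54.8 and 56.2 CPM) and peony at 500 µg/mL (56.0, 55.2 and 50.5 CPM), which overlapped. ALDH1L2 was highest with licorice at 500 µg/mL (7.15, 7.12 and 7.21 CPM), above every other library. SHMT1 (50.0, 50.5 and 49.7 CPM) and MTHFD1 (129, 127 and 128 CPM), the cytosolic pair, were lowest under wortmannin, below every other library.

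With peony, PHGDH and PSAT1 of serine synthesis, all 4 mitochondrial genes and SHMT1 rose with dose. A dose trend is given as the log2 ratio of 500 over 20 µg/mL. With 3 equally spaced log doses it equals the difference between the end groups, and it passed where edgeR's adjusted p over all genes tested was under 0.05. In peony 7 of the 9 genes passed, all of them higher at the higher dose, where 3.49% of all genes tested passed, and the median over the 9 was 0.24, against -0.00087 over all genes. PHGDH was at 148, 164 and 148 CPM at 20 µg/mL, 162, 158 and 159 at 100 µg/mL and 184, 188 and 181 at 500 µg/mL. The libraries at 500 µg/mL did not overlap those of either lower dose, and the trend was 0.27 (SE 0.043; edgeR, adjusted p = 4.12e-05). PSAT1 averaged 348 ± 20.5 CPM at 500 µg/mL and 295 ± 22.9 CPM at 20 µg/mL (SD, n = 3 each), a trend of 0.24 (SE 0.046; edgeR, adjusted p = 0.000605). PSPH, the last step, had a trend of 0.12 (SE 0.047; edgeR, adjusted p = 0.158), so this rise did not pass.

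MTHFD2, ALDH1L2 and MTHFD1L, all mitochondrial, gave the larger ratios in peony. MTHFD2 was at 123, 123 and 114 CPM at 20 µg/mL, 127, 128 and 124 at 100 µg/mL and 159, 162 and 155 at 500 µg/mL. Most of its rise came with the last step of dose, and the trend was 0.40 (SE 0.043; edgeR, adjusted p = 1.94e-09). ALDH1L2 was at 3.56, 3.74 and 4.41 CPM at 20 µg/mL, 6.49, 4.95 and 4.74 at 100 µg/mL and 6.45, 6.58 and 6.39 at 500 µg/mL, a trend of 0.74 (SE 0.118; edgeR, adjusted p = 2.69e-05). The 3 libraries at the middle dose were spread from near the level of the low dose to that of the high dose. MTHFD1L had a trend of 0.31 and SHMT2 one of 0.20 (edgeR, adjusted p = 2.71e-06 and 7.84e-05). Of the cytosolic pair, SHMT1 had a trend of 0.13 (SE 0.040; edgeR, adjusted p = 0.0494), while MTHFD1 had one of -0.06 (edgeR, adjusted p = 0.392). The SHMT1 call was lost under 11 of 16 alternatives, among them the replicate number as a block (edgeR, adjusted p = 0.0521) and no filter on low counts (edgeR, adjusted p = 0.313). The removal of any 1 of 7 libraries also ended it (libraries 1 and 2 of peony at 500 µg/mL, all 3 at 100 µg/mL, and libraries 1 and 3 at 20 µg/mL), with adjusted p up to 0.276.

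Step by step, 0 of 9 genes passed in peony between 100 and 20 µg/mL by edgeR or by DESeq2 (3 at an unadjusted p under 0.05; 0.0249% of all genes passed), though ALDH1L2 did with no filter on low counts (adjusted p = 0.0443). Between 500 and 100 µg/mL 5 passed, all higher (1.21% of all genes passed, 0.578% higher): PHGDH, PSAT1, SHMT2, MTHFD1L and MTHFD2. Without library 1 or 2 of peony at 500 µg/mL, or library 2 or 3 at 100 µg/mL, PSAT1 and SHMT2 no longer passed, and MTHFD1L no longer passed without library 1 at 500 µg/mL (adjusted p up to 0.314, 0.517 and 0.0617 over all alternatives). Against vehicle, 8 of 9 genes passed with peony at 500 µg/mL (19.7% of all genes), 7 higher and MTHFD1 lower. MTHFD2 averaged 159 ± 3.76 CPM with peony and 109 ± 1.67 CPM in vehicle (SD, n = 3 each), a log2 ratio of 0.55 (SE 0.043; edgeR, adjusted p = 7.36e-14). PHGDH had a log2 ratio of 0.40, SHMT2 of 0.29, PSAT1 of 0.27 and MTHFD1 of -0.12, the last with an adjusted p of 0.135 where no filter was used. PSPH passed narrowly (log2 ratio 0.13; edgeR, adjusted p = 0.0495) and was lost under 9 of 12 alternatives, among them without library 1 or 2 of peony or library 2 or 3 of vehicle (adjusted p up to 0.415).

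**Figure D2:**
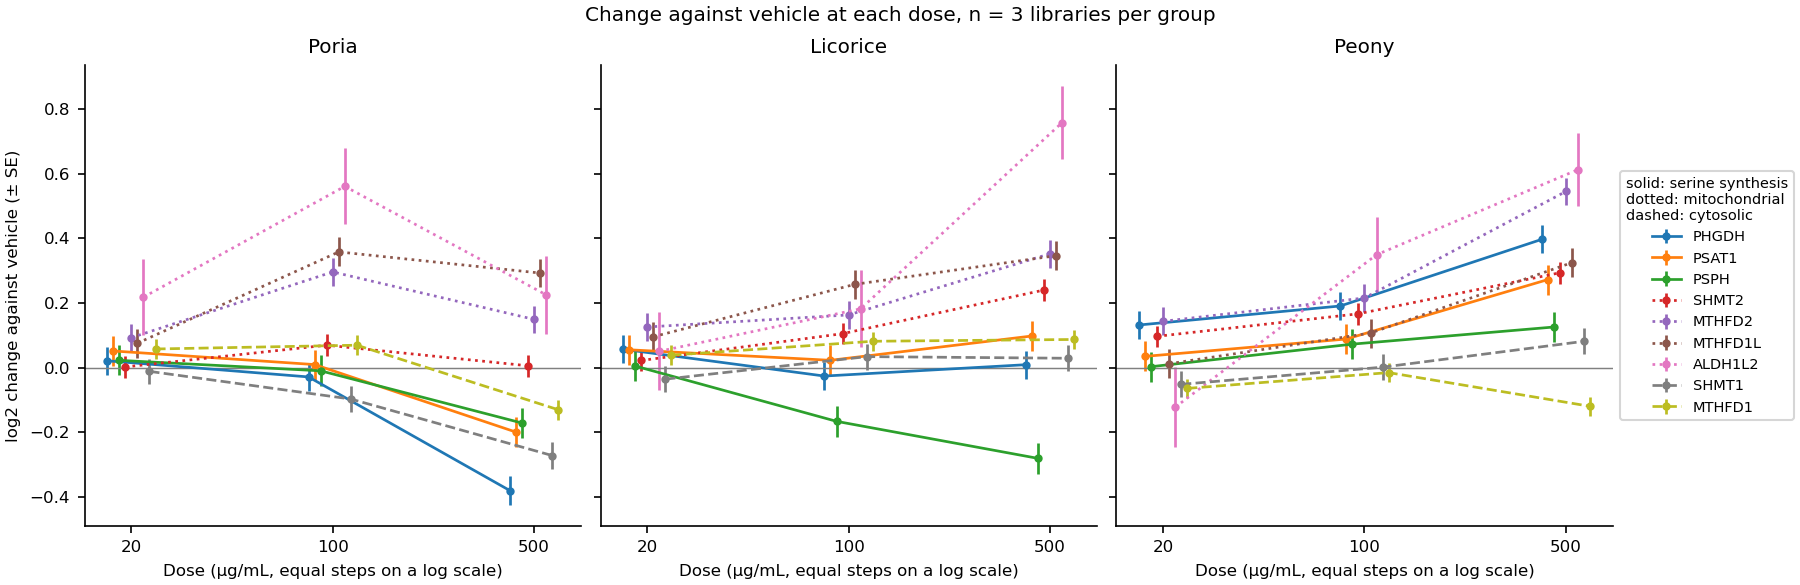
log2 change against vehicle at 20, 100 and 500 µg/mL of Poria, licorice and peony (points are fitted values with SE, n = 3 libraries per group; doses are equally spaced on a log scale). Solid lines are the serine synthesis genes, dotted lines the mitochondrial genes and dashed lines the cytosolic pair. PHGDH ends at -0.38 with Poria at 500 µg/mL and at 0.40 with peony, and PSPH at -0.28 with licorice.

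With Poria all 3 serine synthesis genes and both cytosolic folate genes fell with dose, MTHFD1L rose, and SHMT2, MTHFD2 and ALDH1L2 did not pass. These were 6 of 9 genes (1 higher, 5 lower) where 43.5% of all genes passed, so that calls were common in this extract whatever the gene. PHGDH was at 139, 140 and 146 CPM at 20 µg/mL, 133, 133 and 145 at 100 µg/mL and 106, 108 and 109 at 500 µg/mL. The fall came at the last step, and the trend was -0.40 (SE 0.044; edgeR, adjusted p = 1.14e-10). PSAT1 had a trend of -0.25, PSPH of -0.19, SHMT1 of -0.26 and MTHFD1 of -0.19 (edgeR, adjusted p between 6.18e-07 and 0.000772). MTHFD1L averaged 52.8 ± 0.768 CPM at 500 µg/mL and 45.4 ± 2.19 CPM at 20 µg/mL (SD, n = 3 each), a trend of 0.22 (SE 0.045; edgeR, adjusted p = 7.68e-05). A regression on log dose over all 9 libraries gave an adjusted p of 0.0550 for it.

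The steps of dose went different ways in Poria. Between 100 and 20 µg/mL of Poria 3 genes passed, all higher and all mitochondrial (18.8% of all genes passed, 9.84% higher): MTHFD1L by 0.28, MTHFD2 by 0.20 and ALDH1L2 by 0.34 on the log2 scale. ALDH1L2 was at 5.25, 5.10 and 4.35 CPM at 20 µg/mL, 6.28, 6.36 and 6.09 at 100 µg/mL and 4.86, 5.32 and 4.63 at 500 µg/mL, so the middle dose stood above both others with no overlap. MTHFD2 was at 113, 112 and 123 CPM, then 126, 134 and 140, then 116, 126 and 119 at the same 3 doses. Between 500 and 100 µg/mL 7 of 9 genes passed, all lower (19.3% of all genes passed, 8.34% lower). PHGDH fell by 0.35, ALDH1L2 by 0.34, PSAT1 by 0.21, MTHFD1 by 0.20, SHMT1 by 0.18, PSPH by 0.16 and MTHFD2 by 0.15 on the log2 scale, while SHMT2 (-0.06) and MTHFD1L (-0.07) did not pass. Without library 1 of Poria at 100 µg/mL, MTHFD1L (0.24) and MTHFD2 (0.24) still passed between 100 and 20 µg/mL and ALDH1L2 did not (0.34; edgeR, adjusted p = 0.0628). ALDH1L2 was also lost between 500 and 100 µg/mL without that library (edgeR, adjusted p = 0.0881), while the falls of PHGDH (-0.37), PSAT1 (-0.23), MTHFD2 (-0.19), MTHFD1 (-0.19), PSPH (-0.18) and SHMT1 (-0.16) still passed. Leaving out library 2 of Poria at 100 µg/mL or 3 at 20 µg/mL ended the ALDH1L2 rise, each of libraries 1 and 3 at 500 and 2 and 3 at 100 µg/mL its fall, library 1 at 500 or 3 at 100 µg/mL the MTHFD2 fall, and library 1 or 2 at 500 or 2 at 100 µg/mL the PSPH fall (adjusted p up to 0.147, 0.127, 0.0751 and 0.0691 over all alternatives).

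Against vehicle, 7 of 9 genes passed with Poria at 500 µg/mL (47.6% of all genes), the same 5 lower and MTHFD1L and MTHFD2 higher. PHGDH averaged 107 ± 1.62 CPM with Poria and 139.8 ± 5.01 CPM in vehicle (SD, n = 3 each), a log2 ratio of -0.38 (SE 0.044; edgeR, adjusted p = 3.75e-10). MTHFD1L had a log2 ratio of 0.29 and MTHFD2 of 0.15.

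Under licorice the mitochondrial transcripts rose with dose and PSPH fell. Of the 9 genes 5 passed over the doses, 4 higher and 1 lower, where 21.3% of all genes passed. ALDH1L2 was at 4.94, 3.91 and 4.25 CPM at 20 µg/mL, 4.92, 4.05 and 5.38 at 100 µg/mL and 7.15, 7.12 and 7.21 at 500 µg/mL. The high dose lay clear of both others, and the trend was 0.71 (SE 0.114; edgeR, adjusted p = 3.39e-06). MTHFD1L had a trend of 0.25, MTHFD2 of 0.23 and SHMT2 of 0.22. PSPH, the phosphatase that completes serine synthesis, was at 55.7, 57.3 and 58.2 CPM at 20 µg/mL, 51.3, 50.0 and 50.7 at 100 µg/mL and 47.7, 45.1 and 47.5 at 500 µg/mL. Each step lay below the one before without overlap, and the trend was -0.29 (SE 0.048; edgeR, adjusted p = 6.76e-06). The first 2 enzymes of that route did not pass, with trends of -0.05 for PHGDH and 0.04 for PSAT1.

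In steps, 2 of 9 genes passed between 100 and 20 µg/mL of licorice (1.52% of all genes), PSPH lower by 0.17 and MTHFD1L higher by 0.16 on the log2 scale. Both calls were narrow (edgeR, adjusted p = 0.0496 and 0.0469) and each was lost under 8 of 12 alternatives: PSPH without any 1 of the 6 libraries, MTHFD1L without any of them except library 1 of 20 µg/mL. Between 500 and 100 µg/mL 3 passed, all higher (9.12% of all genes passed, 4.32% higher): ALDH1L2 by 0.58, MTHFD2 by 0.19 and SHMT2 by 0.14, the last with an adjusted p of 0.124 where no filter was used. Against vehicle, 6 of 9 passed at 500 µg/mL (32.4% of all genes), the same 5 and MTHFD1 at a log2 ratio of 0.09. The MTHFD1 call was lost under 6 of 12 alternatives, among them without library 3 of vehicle or library 1 or 3 of licorice (adjusted p up to 0.187). With no filter on low counts its adjusted p was 0.373 (edgeR).

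Under wortmannin, the study's positive control, MTHFD1 fell most of the 9. All 9 genes passed against vehicle, 4 higher and 5 lower, where 46.3% of all genes passed. MTHFD1 was at 129, 127 and 128 CPM with wortmannin, against 180, 186 and 173 CPM in vehicle, a log2 ratio of -0.49 (SE 0.031; edgeR, adjusted p = 4.61e-19). SHMT1 had a log2 ratio of -0.34 and MTHFD1L, the mitochondrial formate synthetase, one of -0.36. MTHFD1L was at 33.0, 34.1 and 33.8 CPM with wortmannin, against 41.7, 44.3 and 43.2 CPM in vehicle. SHMT2 fell by 0.16 and PHGDH by 0.10 on the log2 scale. ALDH1L2 was at 6.42, 6.63 and 6.72 CPM with wortmannin, against 3.98, 4.17 and 4.55 CPM in vehicle, a log2 ratio of 0.64 (SE 0.114; edgeR, adjusted p = 5.93e-06). PSPH rose by 0.23, MTHFD2 by 0.15 and PSAT1 by 0.13. The calls of PHGDH (edgeR, adjusted p = 0.0476) and PSAT1 (edgeR, adjusted p = 0.0146) were the least firm, the first lost without any 1 of the 6 libraries except library 3 of vehicle, the second without library 3 of wortmannin or of vehicle (adjusted p up to 0.151 and 0.0577), and both also with no filter on low counts. MTHFD2 had an adjusted p of 0.0580 with no filter on low counts.

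Under Atractylodes and ginseng none of these genes passed at the highest dose. Over the doses 0 of 9 passed in either extract by edgeR, by DESeq2 or at an unadjusted p under 0.05, where 0.0497% and 0.149% of all genes passed. The trends ran from -0.04 to 0.08 in Atractylodes and from -0.04 to 0.06 in ginseng, with SE of 0.030 to 0.126. At 500 µg/mL against vehicle 0 of 9 passed with Atractylodes (0.889% of all genes) and 0 of 9 with ginseng (10.2%) by both tools, and 2 in each had an unadjusted p under 0.05. PSAT1, for example, was at 272, 298 and 288 CPM with ginseng at 500 µg/mL, against 292, 289 and 283 CPM in vehicle. By step of dose, 0 of 9 passed in Atractylodes (0% of all genes between 100 and 20 µg/mL, 0.00621% between 500 and 100 µg/mL), ginseng (0% and 0.0435%) or angelica (0.00621% and 0.236%) by either tool, with 1 and 0, 0 and 0, and 2 and 1 at an unadjusted p under 0.05.

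Angelica had 2 genes past the threshold over the doses, where 1.22% of all genes passed, MTHFD1L at 0.17 and MTHFD1 at 0.12 (edgeR, adjusted p = 0.0466 and 0.0277). Both were lost without library 1, 2 or 3 at 500 µg/mL or library 1 or 3 at 20 µg/mL, and MTHFD1L also without any other library of the extract (adjusted p up to 0.672 for MTHFD1 and 0.342 for MTHFD1L over all alternatives). Against vehicle, angelica at 500 µg/mL had 2 genes past the threshold (18.9% of all genes), PHGDH at 0.13 and SHMT2 at 0.10. PHGDH was lost without library 3 of vehicle or library 2 or 3 of angelica, and SHMT2 without library 1 or 3 of vehicle or library 1 or 2 of angelica (adjusted p up to 0.185 and 0.274 over all alternatives).

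**Figure D3:**
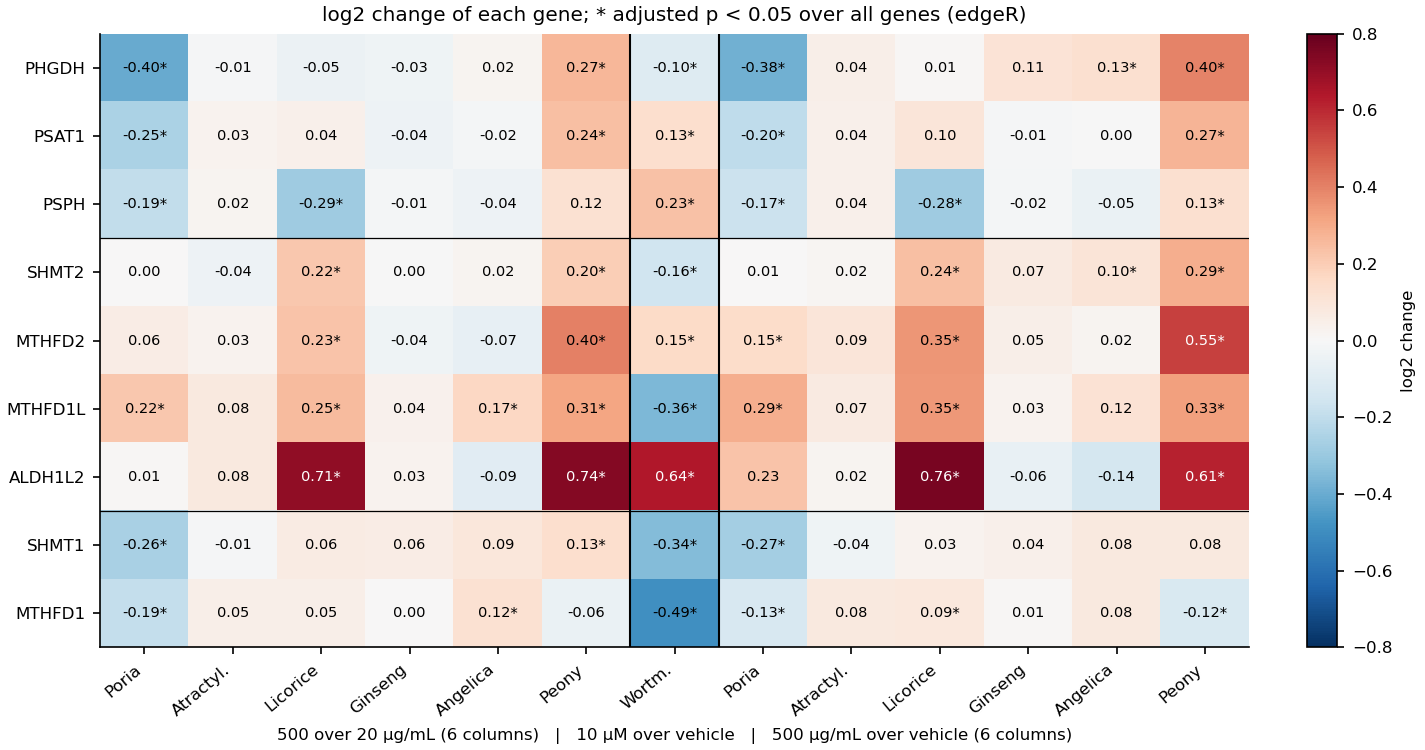
log2 change of each gene for 500 over 20 µg/mL of each extract (6 left columns), for wortmannin over vehicle (middle column) and for 500 µg/mL over vehicle (6 right columns). An asterisk marks an adjusted p under 0.05 over all genes tested (edgeR). The columns of Atractylodes and ginseng hold no asterisk, and PSPH carries its lowest value, -0.29, under licorice.

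Summed over the 6 extracts, fewer tests of these genes against vehicle passed at lower doses, though ginseng had 0 at 500 µg/mL and more at both lower doses. Over all genes, angelica and ginseng had larger shares at 20 µg/mL (24.3% and 13.9%) than at 500 µg/mL (18.9% and 10.2%). At 100 µg/mL 14 of 54 tests of these genes passed over the 6 extracts: 3 in Poria (30.5% of all genes), 4 in licorice (16.4%), 4 in peony (10.0%), 2 in ginseng (8.53%) and 1 in angelica (14.6%), with 0 in Atractylodes by edgeR and DESeq2 (2 at an unadjusted p under 0.05; 1.35%). The 14 became 9 without library 3 of vehicle. Several were narrow: PHGDH and SHMT2 in ginseng were lost under 6 and 8 of 12 alternatives, ALDH1L2 in peony under 8 and SHMT2 in licorice under 7. The 3 in Poria were MTHFD1L, MTHFD2 and ALDH1L2, and without library 1 of that group they still passed, at log2 ratios of 0.32, 0.34 and 0.56. At 20 µg/mL 5 passed: 3 in peony (15.8% of all genes), 1 in licorice (11.2%) and 1 in ginseng (13.9%). In Poria (3.80%), Atractylodes (1.08%) and angelica (24.3%) 0 passed at 20 µg/mL by edgeR, with 1, 0 and 3 at an unadjusted p under 0.05 and 0, 0 and 1 by DESeq2. PHGDH was among the genes called at 20 µg/mL in peony and ginseng, at log2 ratios of 0.13 and 0.14 to vehicle. Both were lost without library 3 of vehicle, and also without library 2 of peony or library 1 of ginseng at that dose (adjusted p up to 0.333 and 0.259). In ginseng its log2 ratio to vehicle was 0.14 at 100 µg/mL and 0.11 at 500 µg/mL, and its trend (-0.03) did not pass. The calls at 20 µg/mL were narrow too. Of the 54 tests at this dose 0 passed without library 3 of vehicle, with no filter or in the fit of only the groups compared, 3 without library 1 or 2 of vehicle or library 1 of peony, and 2 without library 2 of peony.

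The dose trends differed between the extracts for each of the 9 genes. A joint test that the 6 dose trends are equal passed for 9 of 9 genes, where 35.1% of all genes passed. PHGDH gave the lowest adjusted p, 2.20e-10 (edgeR), with trends of -0.40 in Poria, -0.01 in Atractylodes, -0.05 in licorice, -0.03 in ginseng, 0.02 in angelica and 0.27 in peony. MTHFD2 followed at 1.47e-08 and MTHFD1L was the weakest at 0.00233, which became 0.0578 with no filter on low counts. At the matched dose of 500 µg/mL, pairs within a set of libraries were compared, 3 in all. Angelica and peony differed in 8 of 9 genes, where 6.17% of all genes did, 7 of them lower with angelica and MTHFD1 higher. MTHFD2 was at 109, 112 and 110 CPM with angelica, against 159, 162 and 155 CPM with peony, a log2 ratio of -0.52 (SE 0.043; edgeR, adjusted p = 4.83e-13). ALDH1L2 had a log2 ratio of -0.76, PSAT1 of -0.28 and PHGDH of -0.27, MTHFD1 one of 0.20, and SHMT1 did not pass (-0.00028). PSPH (-0.18) was lost without library 3 of angelica or library 2 of peony (adjusted p up to 0.163). Poria and Atractylodes differed in 6 of 9 genes (42.9% of all genes), 5 lower with Poria and MTHFD1L higher, led by PHGDH at -0.43. Licorice and ginseng differed in 5 of 9 (22.4% of all genes), 4 higher with licorice and PSPH lower. ALDH1L2 was at 7.15, 7.12 and 7.21 CPM with licorice, against 4.24, 3.55 and 4.40 CPM with ginseng, a log2 ratio of 0.82 (SE 0.116; edgeR, adjusted p = 2.37e-07).

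Of 8 regulators tested, 1 rose and 1 fell with peony dose (1.78% and 1.70% of all genes), with a median of 0.0091. ATF4 averaged 611 ± 5.22 CPM with peony at 500 µg/mL and 504 ± 12.3 CPM at 20 µg/mL (SD, n = 3 each), a trend of 0.28 (edgeR, adjusted p = 1.45e-05), and NFE2L2 fell by 0.27 on the log2 scale. NFE2L2 rose with Poria dose, by 0.19, and its trend in licorice (0.09) did not pass. Of 23 tested ATF4 targets outside the pathway 10 rose with peony dose, where 1.78% of all genes were higher, with a median of 0.20. ASNS, asparagine synthetase, was at 54.3 ± 3.84 CPM at 20 µg/mL, 60.4 ± 1.74 at 100 µg/mL and 92.4 ± 2.12 at 500 µg/mL of peony, a trend of 0.77 (edgeR, adjusted p = 2.60e-18). SLC7A11, the cystine transporter, had a trend of 0.91, NUPR1 of 0.67 and SESN2 of 0.26, whereas TRIB3 (0.17), DDIT3 (-0.07) and MYC (-0.02) did not pass. With Poria the same list split, 10 of 23 higher and 4 lower (22.3% and 21.2% of all genes), with a median of 0.11 against -0.01 over all genes. SLC7A11 rose by 1.38, GDF15 by 1.56, TRIB3 by 0.51, DDIT3 by 0.42 and ASNS by 0.23, NUPR1 fell by 1.17 and ATF4 itself by 0.16, and MYC rose by 0.45 on the log2 scale. ASNS had its highest mean of the 3 Poria doses at the middle one. It was at 48.2 ± 3.71, 66.6 ± 4.08 and 56.5 ± 1.72 CPM at 20, 100 and 500 µg/mL. The means of MTHFD2, ALDH1L2, MTHFD1L, SHMT2 and MTHFD1 were also highest at the middle dose, that of MTHFD1 by little (187, 189 and 164 CPM). In licorice 8 rose and 2 fell (11.0% and 10.3% of all genes; median 0.08, against 0.00033 over all genes), with SLC7A11 at 0.95, ASNS at 0.40, SLC7A5 at 0.35 and GPT2 at -0.38, while ATF4 had a trend of 0.04 that did not pass and MYC rose by 0.57. With wortmannin 9 of the 23 were higher and 5 lower (22.4% and 24.0% of all genes; median 0.11, against 0.0091 over all genes), among them NUPR1 at 1.11, ASNS at 0.59 and PCK2 at 0.66, with ATF4 at 0.15. CHAC1 was filtered out as too low.

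Transporters and enzymes around serine and glycine followed different lines. Of 18 tested genes that carry, split or use serine and glycine, 4 rose with peony (1.78% of all genes higher): the glycine transporter SLC6A9 by 0.56, CTH of cysteine synthesis by 0.43, and the neutral amino acid carriers SLC1A4 by 0.27 and SLC1A5 by 0.21 on the log2 scale. With Poria 3 rose and 6 fell (22.3% and 21.2%). SLC6A9 averaged 9.04 ± 0.765 CPM at 500 µg/mL and 16.1 ± 1.20 CPM at 20 µg/mL (SD, n = 3 each), a trend of -0.83, and the glycine cleavage genes GLDC and AMT had trends of -0.58 and -0.57 (edgeR, adjusted p at most 6.00e-13 for these 3). The transporter SLC38A2 rose by 0.54. With licorice GLDC fell by 0.42 and SLC1A5 rose by 0.48 on the log2 scale, among 3 of the 18 genes that rose and 2 that fell (11.0% and 10.3%). GLDC was also lower with wortmannin, at 63.4 ± 0.749 CPM against 93.8 ± 1.41 CPM in vehicle. The mitochondrial serine carrier SFXN1 did not pass in the trends of Poria (0.01), licorice (0.05), peony (-0.01) or angelica (0.03), nor with wortmannin (-0.06).

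The rest of the folate pathway did not rise with peony: of 15 other tested folate genes 0 passed its trend by edgeR or DESeq2 (2 at an unadjusted p under 0.05; 3.49% of all genes passed). With Poria 1 rose and 6 fell (22.3% and 21.2% of all genes). FTCD, of histidine breakdown, fell by 0.81, while SLC25A32, the mitochondrial folate carrier, rose by 0.44 on the log2 scale. With licorice 4 rose and 4 fell (11.0% and 10.3%), SLC19A1, the reduced folate carrier, by 0.40, ALDH1L1, the cytosolic relative of ALDH1L2, by 0.39 and SLC25A32 by 0.38 among the first, and TYMS, thymidylate synthase, by 0.20 among the second. With wortmannin 4 rose and 6 fell (22.4% and 24.0%). ALDH1L1 was at 75.8 ± 3.77 CPM with wortmannin against 31.8 ± 0.872 CPM in vehicle (SD, n = 3 each), a log2 ratio of 1.26 (edgeR, adjusted p = 2.17e-27), and TYMS fell by 0.87. Of 11 purine and thymidylate synthesis genes, whose routes take folate-bound carbon at a few of their steps, 9 fell with wortmannin (24.0% of all genes lower). Among them PAICS fell by 0.46 and PFAS by 0.39. With Poria 6 rose and 2 fell (22.3% and 21.2% of all genes), and with licorice 7 rose and 1 fell (11.0% and 10.3%). The rises were led in both by IMPDH1, of guanine nucleotide synthesis, which uses no folate, at 0.83 and 0.47. In peony 0 of the 11 passed by edgeR (3.49% of all genes), with 4 lower at an unadjusted p under 0.05 and 1 lower by DESeq2.

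S phase genes were counted beside them, since TYMS is known to follow the cell cycle. With wortmannin 15 of 15 fell (24.0% of all genes lower), with a median log2 ratio of -0.75, MCM2 by 0.94 and RRM2 by 0.91. With Poria 12 of 15 fell with dose and 1 rose (21.2% and 22.3% of all genes), MCM2 falling by 0.52 and POLA1 by 0.43. With peony 6 of 15 fell (1.70% lower), MCM3 by 0.27 and CDC6 by 0.17. In licorice 2 of 15 rose and 1 fell (11.0% and 10.3% of all genes). The part of these changes in those of MTHFD1 and SHMT1 was not tested.

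Over the 20 group means of log2 CPM, the gene most like each of the 9 was named by Pearson's r, as a description with no test, since the groups share sets and treatments. MTHFD2 was most like ASNS (r = 0.95 over 20 groups, 0.89 without peony at 500 µg/mL), and ALDH1L2 was most like ASNS too (r = 0.84, lowest 0.82 without any 1 group). PSAT1 was most like JDP2 (r = 0.90, lowest 0.82 without Poria at 500 µg/mL) and then NUPR1 (r = 0.85, lowest 0.75 without that group). PHGDH was most like GLS2, a glutaminase (r = 0.92, lowest 0.86 without Poria at 500 µg/mL). MTHFD1 was most like the replication helicase gene MCM4 (r = 0.97, 0.88 without wortmannin) and SHMT1 most like FANCG of DNA repair (r = 0.95, 0.91 without wortmannin). SHMT2 was most like TUFM, a mitochondrial translation factor (r = 0.86, 0.78 without wortmannin), MTHFD1L most like COLGALT1 (r = 0.93) and PSPH most like NGEF (r = 0.93). Among the 9 themselves the closest pair was MTHFD2 with ALDH1L2 (r = 0.80), followed by SHMT1 with MTHFD1 (r = 0.74), PHGDH with SHMT1 (r = 0.73) and PHGDH with PSAT1 (r = 0.71). The lowest r, -0.62, was that of PSPH with MTHFD1L.

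**Figure D4:**
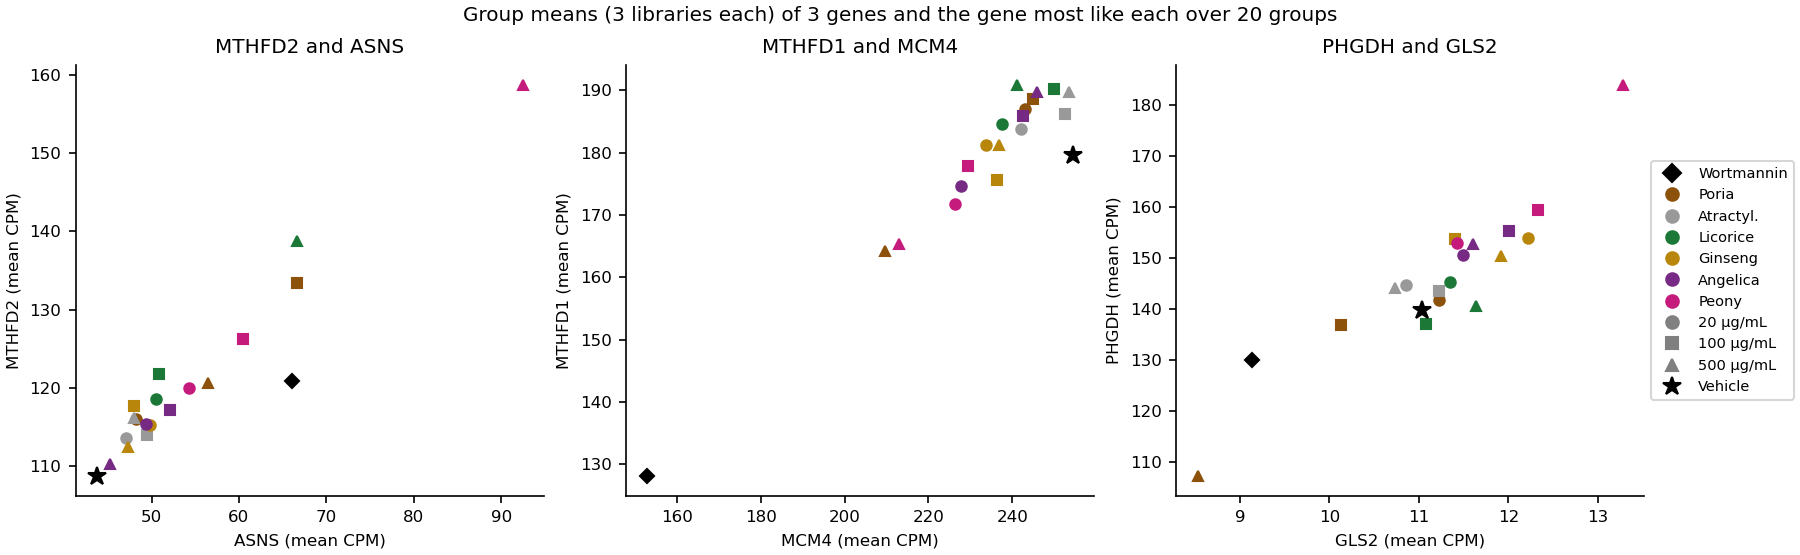
Group means (CPM, 3 libraries each, 20 groups) of MTHFD2 against ASNS, MTHFD1 against MCM4 and PHGDH against GLS2. Colour gives the treatment and shape the dose. Axes do not start at 0. The wortmannin group lies far below the others in the middle panel, where r was 0.97 with it and 0.88 without it.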

How the data were processed

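RNA of 60 HepG2 libraries (20 groups of 3) was sequenced from a directional MGI kit, per the labels' protocols. Per the submitters' processing notes, reads were handled with FastQC 0.11.9, Trim Galore 0.6.5, STAR 2.7.3a and RSEM 1.3.3 on hg38. The annotation release and strand setting are not given in the sources used here. The authors deposited RSEM expected counts per gene, of which 76.1% of values above 0 are whole. RSEM divides reads shared between similar sequences. Of 270 columns, the 60 that the sample descriptions name were used and 210 were not used.

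Counts were rounded and all 60 libraries fitted by edgeR 4.0.16 under R 4.3.3 with limma 3.58.1, using TMM factors (0.926 to 1.03), filterByExpr (minimum count 10, total 15), 1 mean per group, glmQLFit (40 residual degrees of freedom, prior 8.2) and glmQLFTest. SE is the log2 ratio divided by the root of F. Benjamini-Hochberg adjustment was over 16093 genes within a comparison, at 0.05. Where the text gives counts of lists it uses this same adjustment. Symbols came from a table of gene names and GENCODE v29 (57055 genes), coordinates and exon lengths from v29. The fit was tested on simulated data.

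Members, lists and comparisons were chosen with earlier results of these data known. Besides the 9 genes, the text names ATF4, DDIT3, ASNS, TRIB3, CHAC1, SESN2, MYC, NFE2L2, TYMS, GLDC, SLC25A32 and SFXN1 whatever their value (other genes of this rule are not reported here), from each list and comparison up to 4 passing genes of largest change with at least 5 CPM in a group, and the genes of highest Pearson r. Alternatives were DESeq2 1.42.0 and its size factors, 2 other filters, fits of only the groups compared, a block for the replicate number, a regression on dose within an extract (9 libraries), and the removal of single libraries. Likeness under DESeq2 size factors was added after the data were seen. Same-numbered libraries deviated together (every r over 0.1) in 7 of 40 comparisons, which the rule used here takes as pairing, and the blocked value is given where it changes a call there. Over all pairs the median r was 0.14 for libraries of the same number and set and -0.0075 for the same number in another set. The block was common to all sets, so it could not take up pairing particular to a set, and no block within a set was fitted.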

Additional observations from a re-analysis of the deposited data

Results flagged for a closer look

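The dose trends of all 9 genes differed between the 6 extracts by the joint test across extracts, which is what brings them here. The same test passed for 35.1% of all genes. The adjusted p from edgeR was 2.20e-10 for PHGDH, 1.47e-08 for MTHFD2, 1.14e-06 for MTHFD1, 1.48e-06 for SHMT1, 2.72e-06 for PSAT1, 3.95e-06 for SHMT2, 1.43e-05 for ALDH1L2, 1.48e-05 for PSPH and 0.00233 for MTHFD1L. PHGDH had trends of opposite sign in Poria (-0.40) and peony (0.27), and so had PSAT1 (-0.25 and 0.24) and SHMT1 (-0.26 and 0.13). PSPH fell with dose in licorice (-0.29) while the other 2 serine synthesis genes did not pass there. MTHFD1 fell with dose in Poria (-0.19) and rose in angelica (0.12). The MTHFD1 call in angelica was lost under 8 of 16 alternatives, and the SHMT1 call in peony under 11 of 16. With 3 libraries a group, no test for a single outlying library was run.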

How the results depend on the processing

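Of 2265 values of the 9 genes under another setting, 2189 kept their side of the threshold, 68 no longer passed and 8 newly passed. With 1 library left out these were 2684, 117 and 7 of 2808, and no called value changed sign. Over all alternatives and all named genes, 258 values that passed in neither fit did change sign. Under the other settings, apart from the removal of single libraries, counts of genes past the threshold moved by more than 1.5 times in 4 results. Angelica at 500 µg/mL against vehicle had 2 genes, 0 when only genes averaging 1 CPM or more were tested, 0 with no filter and 1 with only the groups compared. The angelica trend had 2, then 1, 0 and 0 under the same 3 settings and 0 by regression. All extracts at 20 µg/mL against vehicle had 5, then 3, 0 and 0. The steps from 20 to 100 µg/mL had 5, then 3 with no filter and 2 with only the groups compared.

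With 1 library left out the counts ran from 7 to 8 for wortmannin, 7 to 7 for Poria, 5 to 6 for licorice, 0 to 3 for angelica and 7 to 8 for peony at 500 µg/mL, 9 to 15 at 100 and 0 to 7 at 20 µg/mL against vehicle. For trends they ran from 6 to 6 in Poria, 5 to 5 in licorice, 0 to 1 in angelica and 6 to 7 in peony, for steps from 3 to 5 (100 over 20) and 12 to 15 (500 over 100), and for pairs of extracts from 6 to 6 (Poria and Atractylodes), 5 to 6 (licorice and ginseng) and 7 to 8 (angelica and peony). Atractylodes and ginseng stayed at 0. The replicate number as a block common to all sets changed 1 call of the 9 genes, SHMT1 over peony doses (edgeR, adjusted p = 0.0521). Pairing particular to a set was not accounted for by it. The cause of these changes was not tested.

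DESeq2 size factors shifted log2 values by a median of at most 0.00703 in any comparison, over the 9 genes and the listed genes together. A call against vehicle rests on 3 vehicle libraries, of another set than every extract, and ALDH1L2, at about 4 CPM, is the least precise of the 9.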
